A study of Mus musculus with 4 samples.

Results

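The NRF2 and antioxidant genes are 37 protein-coding genes, picked by symbol from a table of 41457 genes, and all 37 were found in it. Poly(A) RNA was counted in 4 libraries of mouse colon tumour cells cultured in RPMI medium. The mutant lines M8, M32 and M83 carry the genotype label ENU mutant and have 1 library each, and the cells labelled control have 1 library. ENU (N-ethyl-N-nitrosourea) is an alkylating mutagen that leaves mainly point mutations. The labels name neither the cell line, its mouse strain, nor the gene or genes altered in a line, and whether a line is 1 clone is not given. The series text speaks of triplicates, but the table holds 1 column per sample, so no repeat of a line was analysed here.

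NRF2, encoded by Nfe2l2, is a transcription factor that KEAP1 marks for degradation in unstressed cells. Oxidants and electrophiles modify KEAP1, NRF2 then escapes degradation, pairs with small MAF proteins and binds antioxidant response elements near its target genes. Those targets make glutathione, reduce thioredoxin, supply NADPH and conjugate or export reactive compounds. Because NRF2 is controlled largely at the protein level, its mRNA need not follow its activity. Conjugation to glutathione is also a route by which cells handle alkylating and other electrophilic agents.

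The total count was between 25818148 and 28879954 per library, and levels are given as CPM (read counts brought to the same library size, with the TMM correction for library composition). Of the epithelial and intestinal markers, 10 of 14 had fewer than 10 counts in every library, and Epcam, Cdx2 and Muc2 were at 0. Krt18 and Krt20 were the exceptions that reached 50 counts, and the summed level of this list was 180, 73.8 and 160 CPM in M8, M32 and M83, against 104 CPM in control. The mesenchymal markers summed to 8442, 9997 and 9266 CPM in the lines and 8140 CPM in control. Of that list, 6 of 7 reached 50 counts, Thy1 was at 0 in every library, and Vim had the highest count in each. Apart from Krt18 and Krt20, the labelled colon tumour tissue was thus not matched by an epithelial transcript profile. Leukocyte markers summed to at most 2.08 CPM and endothelial markers to at most 1.14 CPM.

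The antioxidant genes were, for the most part, well expressed. Of the 37 members, 34 passed the filter on low counts, and Gpx2, Gsta2 and Mgst1 did not. Passing alone does not mean a high level, because Nqo1 and Gsta1 passed with at most 23 and 64 counts in a library. Levels of different genes were compared per kilobase of exon, with all annotated exons of a gene merged (1.05 kb for Txn1, 3.04 kb for Prdx1). This length can exceed that of the transcript expressed, so the ranking also depends on the annotation. In control, Txn1, which encodes the disulphide-reducing protein thioredoxin, had the highest level, at 530 CPM per kb (exact 95% Poisson interval 521 to 539). Gstp1, a glutathione S-transferase gene, followed at 267 CPM per kb. Gpx4, the lipid-peroxide reductase gene, had 123 CPM per kb (120 to 126), Prdx1, a peroxiredoxin gene, had 121 (119 to 124), and Gpx1, a glutathione peroxidase gene, had 121 (117 to 124). The intervals of these last genes overlapped, so their order is not set. The intervals cover counting error only, because there was no repeat library. The reads carry no molecular identifiers, so amplified copies of a molecule could not be separated from other reads.

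Nqo1, the quinone reductase gene often used to read out NRF2 activity, was barely detected. It had 12, 23 and 5 counts in M8, M32 and M83, against 17 in control. That is 0.42, 0.85 and 0.17 CPM in the lines and 0.67 CPM in control, where 3 counts, taken as the floor for a library with 0 counts, would be between 0.104 and 0.118 CPM. M83 was the lowest library, with a ratio of 0.26 to control (exact 95% interval 0.0749 to 0.733) and of 0.204 to M32 (0.0606 to 0.548). Its ratio to M8 was 0.41 (0.113 to 1.25), so M83 and M8 were not set apart beyond counting error. The ratios to control of M8 (0.633, 0.276 to 1.41) and M32 (1.27, 0.651 to 2.54) had intervals that include 1. Per kilobase, control held 0.429 CPM of Nqo1 beside 95.8 CPM of Txnrd1, which encodes the cytosolic thioredoxin reductase. Gpx2, an epithelial glutathione peroxidase gene, had 1 count in M83 and 0 in the other libraries. Mgst1, a microsomal transferase gene, had 3, 1 and 0 counts in M8, M32 and M83, against 0 in control. Gsta2 had 0 counts in each line and 4 in control.

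**Figure D1:**
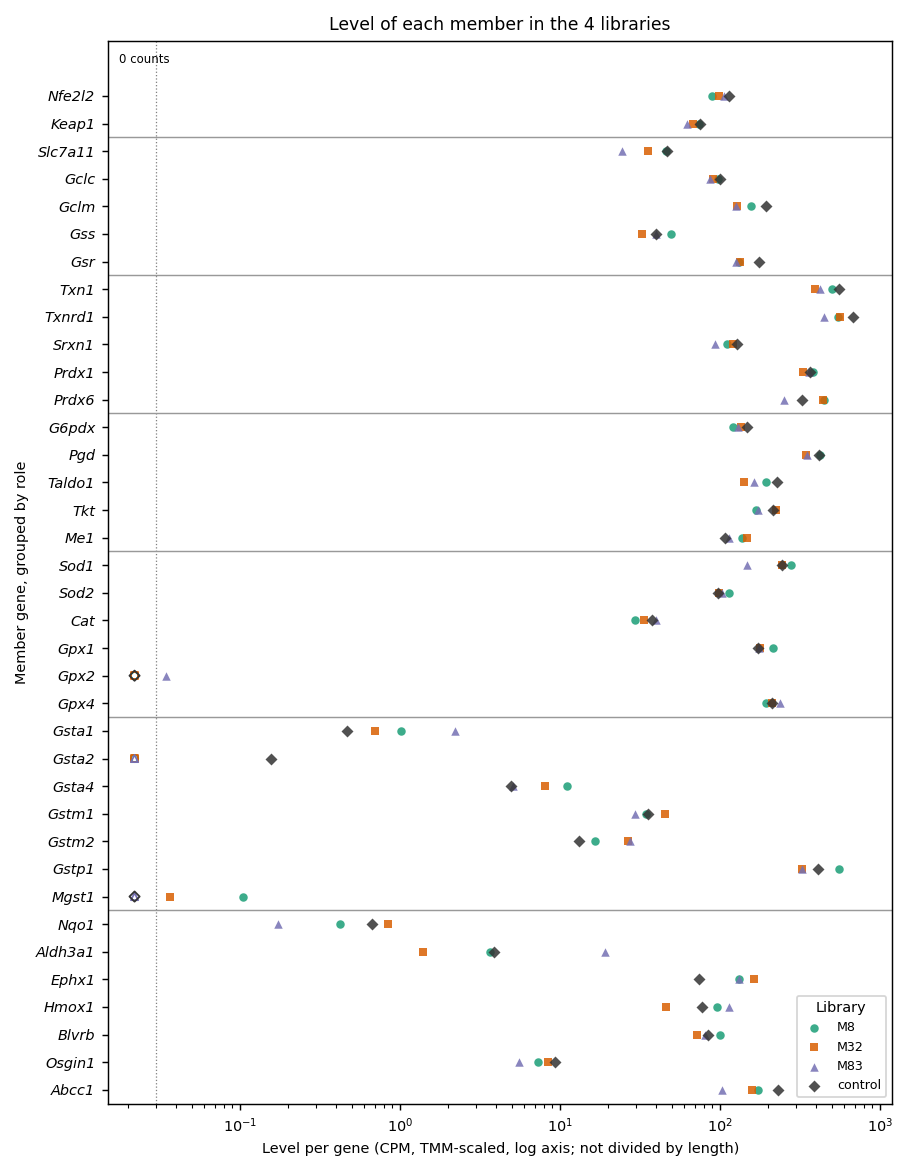
Level of each of the 37 members in CPM (TMM-scaled, log axis, not divided by gene length) in M8, M32, M83 and control, grouped by role, with open symbols left of the dotted line for 0 counts. Most members lie close together across libraries, Nqo1 stays between 0.173 and 0.848 CPM, and Aldh3a1 spans 1.4 to 19.1 CPM.

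The comparison of the ENU mutant lines with control asked which genes the lines shared as a difference. No antioxidant gene passed it. The fit over all 13576 tested genes (edgeR quasi-likelihood test) called 0 of the 34 tested members at an adjusted p under 0.05, beside 0.00737% of all genes, which is 1 gene. DESeq2 also called 0 members, of 36 with an adjusted p, and 37 of 19529 genes. Without adjustment, 1 member, Ephx1, and 448 of all genes fell under 0.05 in edgeR. Each of the 34 members had an edgeR adjusted p of 0.9998. The spread in this fit comes from 3 different mutants with 2 residual degrees of freedom, and the single control library is taken to vary as much as they do. The lines are different mutants, so this spread mixes differences between lines with culture and technical variation, and these could not be separated.

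Set side by side without a test, more members had their highest level in control than had their lowest level there. Control lay above all 3 lines for 13 of 34 members (38.2%), against 21.3% of all tested genes. It lay below all 3 lines for 7 members (20.6%), against 23.3% of all tested genes. These counts take the levels as they stand. For some of the members, such as Keap1 and Gclc in M8 and Gpx1 in M83, the interval of a ratio to control includes 1. The median edgeR log2 difference was -0.14 over the members and 0.02 over all tested genes. Genes of one pathway are not independent draws, and all lines were set against 1 control library, so a lower level in the lines cannot be told apart from a higher one in that culture. In bulk RNA, fewer cells holding a transcript and less transcript per cell cannot be told apart either.

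The regulators themselves differed little. Nfe2l2 (chromosome 2, 75675513 to 75704641, minus strand, GRCm38) had 90.0, 99.2 and 106 CPM in M8, M32 and M83, against 114 CPM in control. The lines averaged 98.4 ± 7.92 CPM (SD, n = 3), a log2 difference of -0.22 (SE 0.217). Keap1, the gene of its adaptor for degradation, had 74.6, 68.0 and 62.8 CPM in the lines and 75.6 CPM in control. Control was the highest library for both genes, by at most 0.34 on the log2 scale (Nfe2l2 in M8). An antisense gene, Gm16754, overlaps 10.9% of the exon bases of Keap1, and without a stated strand setting its reads could not be separated.

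The core of the antioxidant response element was searched in the RefSeq promoter windows of GRCm38.p6, which run from 250 bases before to 50 bases after each start site. The letters searched were TGACNNNGC on both strands, which overlap the AP-1 motif TGACTCA where the spacer is TCA. The core was present in 10 of the 40 windows of members (25%), from 30 member genes with a window, and in 12.4% of all 32851 windows. TGACTCA, on either strand, was in 12.5% of member windows and 5.2% of all windows. Aldh3a1, Hmox1, Gclc, Gsr, Gsta4, Abcc1 and Prdx6 had no window. The 10 genes are Nfe2l2, Gclm, Prdx1, Txnrd1, G6pdx, Me1, Sod1, Mgst1, Pgd and Srxn1, and in Pgd and Srxn1 the core lies after the start. The stretches of the regulator Nfe2l2 and of 1 or more genes each for glutathione synthesis, peroxide and thioredoxin reduction and NADPH supply are shown as examples, chosen after their values were seen. They are written 5′ to 3′ on the strand of the gene, with the core in capitals, which appears as its reverse complement where it lies on the opposite strand. Txnrd1 and Me1 have more than 1 annotated start, and the stretch belongs to 1 of them. Coordinates in brackets are those of the printed stretch, not of its core. In the Nfe2l2 stretch (chr2:75704875-75704913) the core begins 240 bases before the start. It begins 134 before in Gclm (chr3:122245403-122245451), 133 in Prdx1 (chr4:116685446-116685494) and 92 in Txnrd1 (chr10:82859094-82859142). In G6pdx (chrX:74428909-74428957) it begins 57 before, and in Me1 (chr9:86695904-86695940) 6.
Nfe2l2: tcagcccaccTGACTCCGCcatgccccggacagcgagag
Gclm: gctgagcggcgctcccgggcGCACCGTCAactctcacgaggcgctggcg
Prdx1: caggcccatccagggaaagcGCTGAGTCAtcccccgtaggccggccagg
Txnrd1: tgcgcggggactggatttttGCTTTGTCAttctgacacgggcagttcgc
G6pdx: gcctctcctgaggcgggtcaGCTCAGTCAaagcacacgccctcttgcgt
Me1: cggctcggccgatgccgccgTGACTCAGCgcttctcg
The cores of Prdx1 and Me1 are the same letters, TGACTCAGC, read on opposite strands relative to the gene. A match describes letters only, and genes that hold it lay on both sides of control: Nfe2l2, Gclm, Txnrd1, G6pdx and Srxn1 below it in each line, Me1 above it in each line, and Prdx1, Sod1 and Pgd on both sides. Mgst1 had too few counts to place.

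The glutathione synthesis and recycling genes were lower in M32 and M83. All 5 had a negative log2 ratio to control in M32 (median -0.39) and in M83 (median -0.47), and 4 of 5 in M8 (median -0.06). Gss was level with control in M83, and its log2 ratio there was 0.06 when libraries were scaled by their totals alone. Gclm encodes the modifier subunit of glutamate-cysteine ligase, the first enzyme of glutathione synthesis. It had 156, 128 and 127 CPM in M8, M32 and M83, against 196 CPM in control, with no overlap between lines and control. The lines averaged 137 ± 16.5 CPM (SD, n = 3), a log2 difference of -0.52 (SE 0.227). Gsr, the glutathione reductase gene, was even across the lines, with 132, 133 and 126 CPM, against 175 CPM in control (log2 difference -0.42, SE 0.204).

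The catalytic subunit gene Gclc lay closer to control, with 97.0, 91.1 and 86.8 CPM in M8, M32 and M83, against 101 CPM in control. Slc7a11 encodes the cystine importer that feeds glutathione synthesis. It had 46.3, 35.6 and 24.5 CPM in the lines and 46.8 CPM in control, so M8 was level with control and M83 was lowest. The ratio of M83 to M8, which does not involve the control, was 0.53 (exact 95% interval 0.483 to 0.581). Gss, the glutathione synthetase gene, was the exception in this group, with 49.8, 32.7 and 39.7 CPM in the lines and 39.8 CPM in control, and 15.4% of its exon bases overlap other genes.

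The thioredoxin genes had lower levels in each line than in control, and the peroxiredoxin genes lay on both sides of it. Txnrd1 had 547, 561 and 449 CPM in M8, M32 and M83, against 679 CPM in control, a mean of 519 ± 61.0 CPM in the lines (SD, n = 3) and a log2 difference of -0.39 (SE 0.224). Txn1 had 504, 392 and 423 CPM in the lines and 557 CPM in control. Srxn1, which encodes sulfiredoxin, the enzyme that restores over-oxidised peroxiredoxins, had 111, 121 and 93.7 CPM in the lines and 129 CPM in control. Control was the highest library for each of these genes, and M83 the lowest for Txnrd1 and Srxn1.

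Prdx1 had 383, 331 and 359 CPM in M8, M32 and M83, against 368 CPM in control. Its log2 ratio in M83 was -0.04, and 0.03 when libraries were scaled by their totals alone. Prdx6, the gene of a peroxiredoxin that also acts on phospholipids, had 450, 439 and 253 CPM in the lines and 327 CPM in control. It was thus above control in M8 and M32 and below it in M83, and the ratio of M83 to M8 was 0.562 (exact 95% interval 0.546 to 0.579).

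The NADPH-supplying genes lay on both sides of control. Among the pentose phosphate members, G6pdx, the first dehydrogenase of the pathway, had 122, 136 and 130 CPM in M8, M32 and M83, against 148 CPM in control. Taldo1, the transaldolase gene, had 194, 142 and 163 CPM in the lines and 226 CPM in control, a log2 difference of -0.44 (SE 0.246). Control was the highest library for both. The other pentose phosphate members, Pgd and Tkt, had control within the range of the lines, with log2 ratios between -0.36 (Tkt in M8) and 0.05 (Tkt in M32). Me1, which encodes cytosolic malic enzyme and makes NADPH outside that pathway, was above control in each line, by the least in M83, with 138, 148 and 115 CPM in the lines and 108 CPM in control (log2 difference 0.31, SE 0.244). Of the Me1 transcript words of 50 letters, 28.3% also occur in other genes, mainly pseudogenes, and Ikbkg overlaps 13.6% of the exon bases of G6pdx.

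The genes that remove superoxide and peroxide stayed near control, except for Sod1 in M83. Sod2, the mitochondrial superoxide dismutase gene, had 114, 98.7 and 103 CPM in M8, M32 and M83, against 97.3 CPM in control. The interval of its ratio in M32 (0.96 to 1.07) includes 1, and 21.0% of the Sod2 words occur in other genes. Gpx1 had 216, 179 and 175 CPM in the lines and 174 CPM in control, with M32 and M83 almost level with it. Gpx4 had 193, 212 and 237 CPM in the lines and 212 CPM in control, although 34.7% of its words occur elsewhere, mainly in a pseudogene. The log2 ratios of Cat, the catalase gene, lay between -0.36 (M8) and 0.07 (M83).

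**Figure D2:**
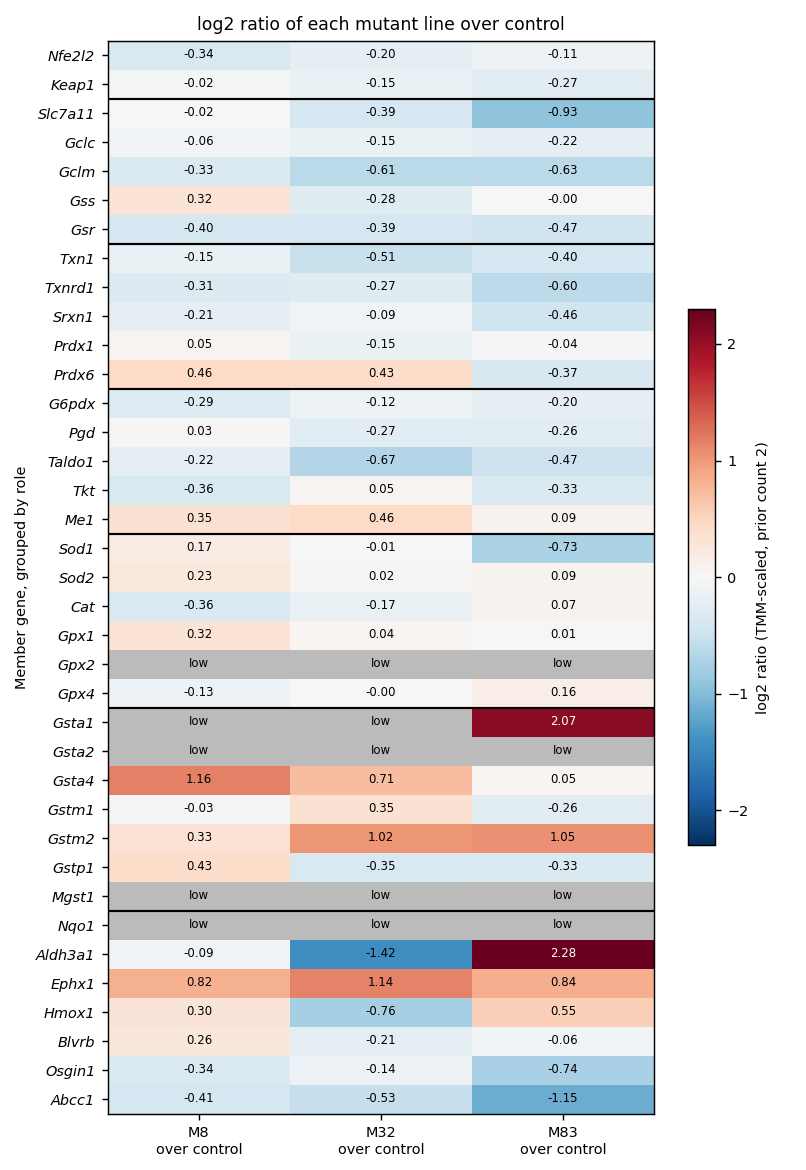
log2 ratio of M8, M32 and M83 over control for each member (colour and printed value, TMM-scaled with a prior count of 2), grouped by role, with grey cells marked low where the higher library had under 50 counts. The glutathione and thioredoxin genes are mostly pale blue (lower), Ephx1 is red in all lines (0.82, 1.14 and 0.84), and Aldh3a1 runs from -1.42 in M32 to 2.28 in M83.

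Each line was also set against control alone. A member counted when its log2 ratio was at least 1 in size and the higher library held at least 50 counts. With 1 library each there is no test, and the 3 comparisons share the control. In M8, 1 of 32 members with enough counts was higher by this rule (3.12%, against 3.73% of all genes with enough counts), and 0 were lower (2.05% of all genes). In M32, 2 of 32 were higher (6.25%, against 4.86%) and 1 was lower (3.12%, against 1.15%). In M83, 3 of 33 were higher (9.09%, against 5.19%) and 1 was lower (3.03%, against 1.27%). Gsta1, among those higher in M83, met the count minimum only through that library (64 counts, against 12 in control). It was not counted in M8 or M32. Each of these shares of members rests on 0 to 3 genes, too few to set apart from the shares of all genes. They fall on 6 genes, Gsta1, Gsta4, Gstm2, Aldh3a1, Ephx1 and Abcc1. These belong to the transferase group or the other detoxification, haem breakdown and export group, with 7 members each. Gstm1, Gstp1, Hmox1, Blvrb and Osgin1 of the same groups did not pass. Gsta1, Gsta4, Aldh3a1 and Gstm2 had low levels in control, at most 13.2 CPM.

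Most members lay close to control. In M8, 93.8% of them stayed within 0.5 of control on the log2 scale, against 79.2% of all genes with enough counts. In M32 the share was 71.9%, against 81.5%, and in M83 it was 66.7%, against 77.6%. A log2 ratio above 0 was found for 43.8% of the members in M8, 28.1% in M32 and 33.3% in M83, beside 51.8%, 48.1% and 49.1% of all genes. Over the members, the median log2 ratio to control was -0.02 for M8, -0.15 for M32 and -0.22 for M83, beside 0.01, -0.02 and -0.01 over all genes.

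**Figure D3:**
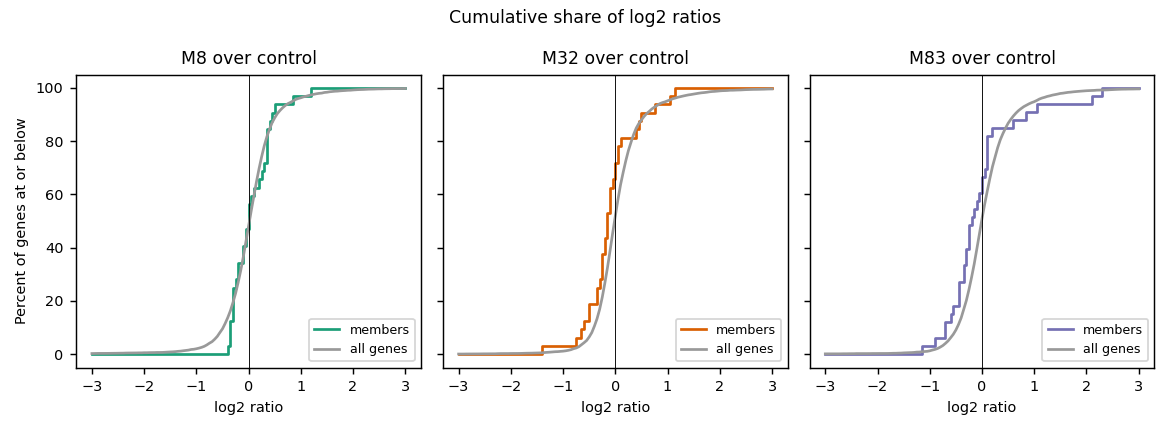
Cumulative percent of genes (vertical axis) at or below a log2 ratio over control (horizontal axis), for the members (coloured steps) and all genes with at least 50 counts in the higher library (grey), in M8, M32 and M83. The member curve lies left of the grey curve near 0 in M32 and M83, where the member medians are -0.15 and -0.22. In M8 the curves cross, with 0% of members against 11.5% of all genes at or below -0.45 and 93.8% against 88.8% at or below 0.5.

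Ephx1 was well above control in every line. It encodes microsomal epoxide hydrolase, which opens reactive epoxides. Ephx1 (chromosome 1, 180976210 to 181020904, minus strand) had 131, 164 and 133 CPM in M8, M32 and M83, against 74.0 CPM in control. The lowest line did not come near control, and the ratios were 1.77 (exact 95% interval 1.67 to 1.87), 2.21 (2.10 to 2.34) and 1.79 (1.70 to 1.90). The lines averaged 142 ± 18.4 CPM (SD, n = 3), a log2 difference of 0.94 (SE 0.252), and the adjusted p was 0.9998 in edgeR and 0.242 in DESeq2. The median log2 ratio of chromosome 1 genes was 0.19, 0.13 and -0.09 in the lines.

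Glutathione S-transferases attach glutathione to electrophiles, and their genes differed from each other. Gstm2, a mu-class gene, had 16.7, 26.9 and 27.5 CPM in M8, M32 and M83, against 13.2 CPM in control, so M32 and M83 stood apart (ratios 2.03 and 2.07) and M8 was close to control (1.26). Its neighbour Gstm1 had 34.7, 45.1 and 29.6 CPM in the lines and 35.4 CPM in control, with M83 the lowest. Gstm2 and Gstm1 thus lay on opposite sides of control in M83, and 18.9% of the Gstm1 words and 5.66% of the Gstm2 words occur in other genes.

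Gsta4, an alpha-class gene whose enzyme clears products of lipid peroxidation, was highest in M8. It had 317, 220 and 148 counts in M8, M32 and M83, against 126 in control, or 11.1, 8.11 and 5.12 CPM, against 4.94 CPM. The ratio to control was 2.25 in M8 (exact 95% interval 1.83 to 2.79) and 1.04 in M83 (0.812 to 1.33). Gsta1 was instead highest in M83 and lowest of the lines in M32, with 29, 19 and 64 counts in M8, M32 and M83, against 12 in control. Its ratio was 4.71 in M83 (2.52 to 9.58), it met the count minimum only through that library, and 90.5% of its words occur in Gsta2 or other relatives, so its reads are uncertain. Gstp1, of the pi class, had 556, 324 and 328 CPM in the lines and 413 CPM in control, and 33.7% of its words are shared, chiefly with Gstp2.

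Aldh3a1 showed the widest spread of any member with at least 50 counts in some library. It encodes an aldehyde dehydrogenase that is abundant in cornea and induced by xenobiotics. Aldh3a1 (chromosome 11, 61207537 to 61218421, plus strand) had 104, 38 and 553 counts in M8, M32 and M83, against 99 in control. In CPM these were 3.65, 1.40 and 19.1 in the lines, against 3.88 in control. M83 stood far above the others, M32 below them, and M8 level with control. The ratio to control was 4.93 in M83 (exact 95% interval 3.97 to 6.17), 0.361 in M32 (0.242 to 0.53) and 0.941 in M8 (0.708 to 1.25). Between lines, M83 over M32 was 13.7 (9.82 to 19.5).

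The haem genes were mixed. Hmox1, the inducible haem oxygenase gene, had 95.9, 45.8 and 114 CPM in M8, M32 and M83, against 77.8 CPM in control. M32 was lowest, and M83 over M32 was 2.49 (exact 95% interval 2.34 to 2.66). The mean of the lines, 85.3 ± 35.4 CPM (SD, n = 3), did not differ from control beyond their spread. Blvrb, the gene of biliverdin reductase B, had 101, 72.3 and 80.3 CPM in the lines and 83.9 CPM in control. Osgin1, an oxidative-stress-induced growth inhibitor gene, had 209, 229 and 160 counts in the lines and 237 in control.

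Abcc1 had the lowest ratio to control among members with enough counts apart from Aldh3a1 in M32. It encodes MRP1, a pump that exports glutathione conjugates. Abcc1 (chromosome 16, 14361558 to 14475737, plus strand) had 173, 159 and 104 CPM in M8, M32 and M83, against 230 CPM in control. All lines were below control, M83 the furthest, with a ratio of 0.45 (exact 95% interval 0.431 to 0.471). The lines averaged 145 ± 36.5 CPM (SD, n = 3), a log2 difference of -0.67 (SE 0.31).

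Chromosome 16 as a whole was lower in M83. Its 335 genes with enough counts had a median log2 ratio of -0.55, 88.7% were below 0, and 6.57% were lower by 2-fold or more. The medians of chromosome 16 in M8 and M32 were 0.00 and -0.06. Relative to the M83 median, Abcc1 was at -0.60. Sod1, the cytosolic superoxide dismutase gene, lies on the same chromosome and had 277, 245 and 148 CPM in M8, M32 and M83, against 247 CPM in control. Its log2 ratio was -0.73 in M83 and -0.18 relative to the chromosome median. The part of the chromosome-wide shift in either result was not tested.

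**Figure D4:**
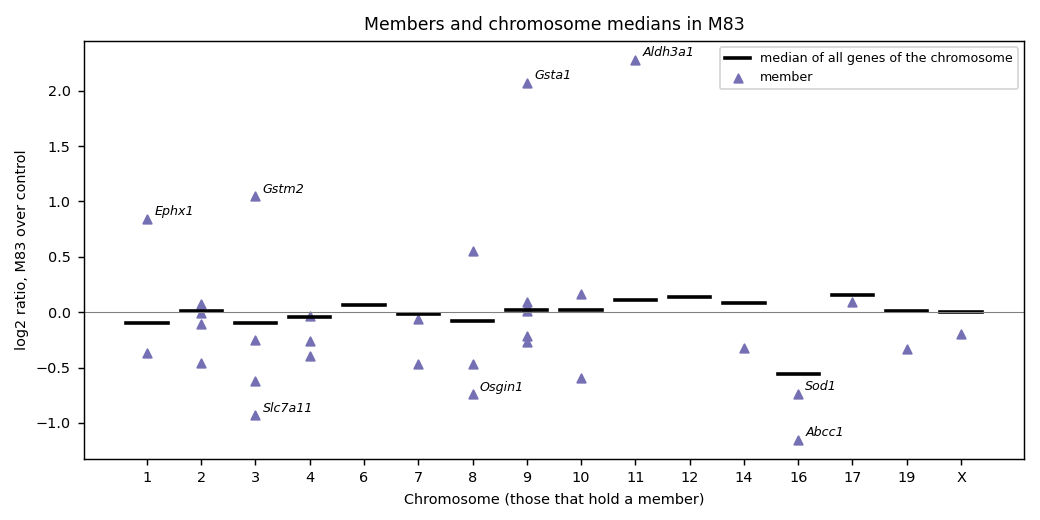
log2 ratio of M83 over control (vertical axis) for members (triangles) by chromosome (horizontal axis), with a bar for the median of all genes of that chromosome with at least 50 counts in the higher library. Chromosome 16 has a median of -0.55 and holds Abcc1 at -1.15 and Sod1 at -0.73, while the other bars lie close to 0.

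Further genes of the pathway were taken from a list of 102 regulators, antioxidant enzymes and conjugating enzymes that holds no member. Of these, 100 were in the table and 77 were tested. edgeR called 0 of the 77, with 6 under 0.05 before adjustment, beside 3.3% of all tested genes. DESeq2 called 1 of the 88 with an adjusted p, Aldh1a1, beside 0.189% of all genes with an adjusted p. By the 2-fold rule 3 of 70 were higher and 0 lower in M8, 6 of 71 higher and 0 lower in M32, and 6 of 71 higher and 2 lower in M83. The share of higher genes was 4.29%, 8.45% and 8.45%, beside 3.73%, 4.86% and 5.19% of all genes, and the share of lower genes in M83 was 2.82%, beside 1.27%.

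The 9 genes past 2-fold in some line were led by Aldh1a1, a retinaldehyde dehydrogenase gene, with 539, 594 and 210 counts in M8, M32 and M83, against 20 in control. Ugt1a7c, a glucuronosyltransferase gene that shares exons with its relatives, had 169, 93 and 197 counts in the lines and 30 in control. Me3, which encodes a mitochondrial malic enzyme, had 63, 101 and 159 counts in the lines and 23 in control. These genes had log2 ratios of at least 1.23 in every line, and their edgeR adjusted p was 0.9998. In DESeq2 the adjusted p of Aldh1a1 was 6.5e-08.

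Idh1, the cytosolic NADP-dependent isocitrate dehydrogenase gene, was set apart in M32, with 400, 1115 and 388 counts in M8, M32 and M83, against 230 in control. Gsto2, an omega-class transferase gene, had 44, 73 and 140 counts in the lines and 29 in control. Ptgr1, a prostaglandin reductase gene, had 182, 346 and 412 counts in the lines and 160 in control, and Mgst3, a microsomal transferase gene, passed the rule in M83 alone (log2 ratio 1.15). Both genes that were lower in M83, Hmox2, the constitutive haem oxygenase gene (-1.02), and Txnrd2, the mitochondrial thioredoxin reductase gene (-1.13), lie on chromosome 16 like Abcc1. The other genes of the list on that chromosome with enough counts, Bach1 (-0.26) and Abcc5 (-0.10), lay nearer to control in M83. With libraries scaled by their totals alone Hmox2 no longer reached 2-fold.

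**Figure D5:**
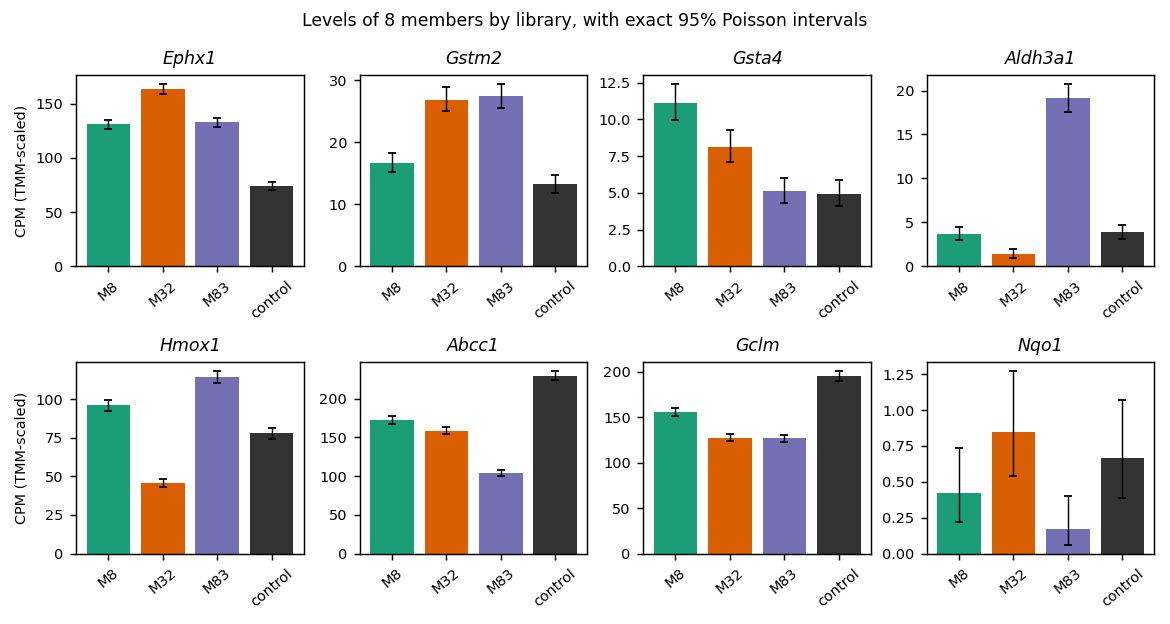
Level in CPM (bars from 0, TMM-scaled) of Ephx1, Gstm2, Gsta4, Aldh3a1, Hmox1, Abcc1, Gclm and Nqo1 in M8, M32, M83 and control, with exact 95% Poisson intervals for counting error only. Ephx1 is lowest and Abcc1 and Gclm highest in control, Aldh3a1 reaches 19.1 CPM in M83, and the Nqo1 intervals are wide because it had 5 to 23 counts.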

How the data were processed

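The deposited table holds raw read counts by gene, not normalised by the authors, in 1 column for each of the 4 samples. The submitters' processing notes name GRCm38 as the build. Which aligner, counter, annotation and strandedness were used, and whether repeats were summed, is not given in the sources used here. Columns were matched to samples by their description, and lines to groups by the genotype label. Positions and exon lengths came from GENCODE vM21 of the same build, and promoters from RefSeq (GRCm38.p6). The ENU lines were tested against control with edgeR 4.0.16 (R 4.3.3, TMM, filterByExpr, quasi-likelihood test, Benjamini-Hochberg adjustment over 13576 genes). The SE is the log2 difference divided by the root of F. DESeq2 1.42.0 was the other tool. Single lines used log2 ratios with a prior count of 2 and exact Clopper-Pearson 95% intervals, which cover counting error only. Shared words are the 50-letter stretches of a gene's transcripts found in transcripts of other genes on either strand. The scripts were checked on simulated counts.

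The members and lists were chosen with earlier results of these data known. Members with counts from every library are those past 2-fold in a line, those with control outside the range of the lines, the 5 with the highest control level per length, Nfe2l2 and Keap1, and Gpx2, Mgst1, Hmox1, Nqo1, Sod1, Prdx6, Gss, Gstm1 and Blvrb were added after their values were seen. From the wider list the genes past 2-fold are named.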

Additional observations from a re-analysis of the deposited data

Results flagged for a closer look

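Aldh3a1 moved in opposite directions in 2 lines, with a log2 ratio to control of 2.28 in M83 and -1.42 in M32. With 1 library per line this difference was not tested against replicate spread.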

How the results depend on the processing

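The count of genes called for the ENU lines against control was 1 in edgeR, 2 with no filter on low counts and 37 in DESeq2, and it was 1 with DESeq2 size factors, with library size alone and when each line was left out in turn. The count of members called was 0 under each of these 7 alternatives. The log2 differences of the 20 members with control outside the range of the lines kept their direction in all 140 alternative values, and their smallest adjusted p was 0.242 (Ephx1 in DESeq2). These 20 members were chosen for lying on the same side of control in every line, so leaving out a line could hardly reverse them. Their kept direction is therefore no independent check. Members past 2-fold numbered 2 in M8 with a count minimum of 20, where Gsta1 joined Gsta4. With a fold of 1.5 they numbered 2 in M8, 7 in M32 and 10 in M83. These counts moved because the limits were looser. Genes of the wider list past 2-fold numbered 4 in M8, 8 in M32 and 8 in M83 with a count minimum of 20, against 3, 6 and 8, and 7 in M83 with library size alone, where Hmox2 was lost. Of 291 alternative log2 ratios of members, 12 moved beyond their counting interval, all in M83 with library size alone, which raised M83 values by a median of 0.06. Prdx1 changed sign among them. Which members had control outside the range of the lines was the same under both other scalings, an alternative chosen after seeing the data. The lone control could not be left out, and depth limits Nqo1, Gpx2, Gsta2 and Mgst1. No paired analysis was possible because control has 1 sample.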
